A study of Mus musculus with 9 samples.

Results

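The receptors of the common gamma chain cytokines were examined in CD8 T cells of 3 clones, kept overnight in IL-2 without antigen. The 8 receptor chain genes were listed by name, with no threshold on their values: Il2rg, Il7r, Il4ra, Il21r, Il2rb, Il2ra, Il15ra and Il9r. All 8 were in the expression table of 24060 genes, and all 8 were among the 12115 genes that passed the filter of a highest value over 1 TPM (a length-scaled share of all transcripts). Il9r passed it through 3 of its 9 samples.

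Cells were taken from 3 transnuclear mouse lines, Rop7-I, -II and -III, which had been made by somatic cell nuclear transfer, each from the nucleus of a single CD8 T cell. Each line therefore stands for 1 T-cell receptor, which recognises a peptide of the Rop7 protein of Toxoplasma gondii on the class I molecule H-2Ld, and a difference between lines cannot be told apart from any other difference between the 3 founder nuclei and their descent. The study describes the lines as bred onto a BALB/c background and the cells sequenced as homozygous for the rearranged receptor genes, and the ages of the mice are not given in the sources used here. Splenocytes of all 9 samples, 3 biological replicates per line, were kept overnight without antigen in medium with IL-2 at 10 ng/ml, itself a ligand of these receptors, and sorting for CD3, CD8 and binding of an H-2Ld-Rop7 tetramer then gave a purity of 90 to 95%. There was no sample without IL-2. The comparison asks whether clones of the same antigen specificity differ in the transcripts of their cytokine receptors after a night in IL-2 without antigen.

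The receptors for IL-2, IL-4, IL-7, IL-9, IL-15 and IL-21 share a subunit, the common gamma chain encoded by Il2rg, which pairs with a private chain for each cytokine. Engaged receptors signal through the kinases JAK1 and JAK3 and the STAT transcription factors. In naive CD8 T cells IL-7 maintains survival, IL-15 sustains memory cells, IL-2 drives growth after activation through a receptor that gains affinity from the alpha chain Il2ra, and IL-4 acts through the chain Il4ra, which also pairs with Il13ra1 to bind IL-13.

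Most of these chains belong to the class I cytokine receptors, whose extracellular part carries a conserved box of tryptophan and serine close to the membrane. Codons for Trp-Ser-any-Trp-Ser were found in the coding sequence of 6 of the 8 members, against 71 of 21789 protein-coding genes (0.326%). The 2 without them were Il2ra and Il15ra, the alpha chains that bind cytokine through a different fold. The 45 bases around the box are shown to set the 6 chains side by side, with the codons of the box in capitals, 5' to 3' on the coding strand, read from the GRCm38 genome.

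Il2rg, exon 5 of 8, chrX:101266200-101266244, minus strand: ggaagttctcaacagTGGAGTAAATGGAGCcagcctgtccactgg
Il7r, exon 5 of 8, chr15:9511136-9511180, minus strand: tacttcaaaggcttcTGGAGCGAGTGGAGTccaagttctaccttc
Il4ra, exon 7 of 11, chr7:125571539-125571583, plus strand: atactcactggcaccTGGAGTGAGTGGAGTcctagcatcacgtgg
Il21r, exon 6 of 9, chr7:125628983-125629027, plus strand: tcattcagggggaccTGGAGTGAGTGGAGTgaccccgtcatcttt
Il2rb, exon 7 of 10, chr15:78485748-78485792, minus strand: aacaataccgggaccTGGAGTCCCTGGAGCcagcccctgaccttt
Il9r, exon 6 of 9, chr11:32193196-32193240, minus strand: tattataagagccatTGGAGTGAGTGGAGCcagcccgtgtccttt

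In every one of the 6 the box lay within a single exon. The box was at codons 213 to 250 of these coding sequences, from codon 213 in Il4ra to codon 250 in Il9r.

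Common gamma chain receptor transcripts fell into an abundant and a scarce set in all 3 clones (plot of TPM by gene and sample). Il2rg, Il7r, Il4ra, Il21r and Il2rb were at 74.49 TPM or more in every sample, whereas Il2ra, Il15ra and Il9r were at 4.79 TPM or less in every sample. TPM is scaled per length, so that levels of different genes can be compared. In these bulk samples, fewer cells of a type and less RNA per cell cannot be told apart. Of the 8 members, Il7r and Il4ra differed between clones, with the lowest levels of both in Rop7-II cells, and the other 6 did not pass the test in any pair of clones.

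**Figure D1:**
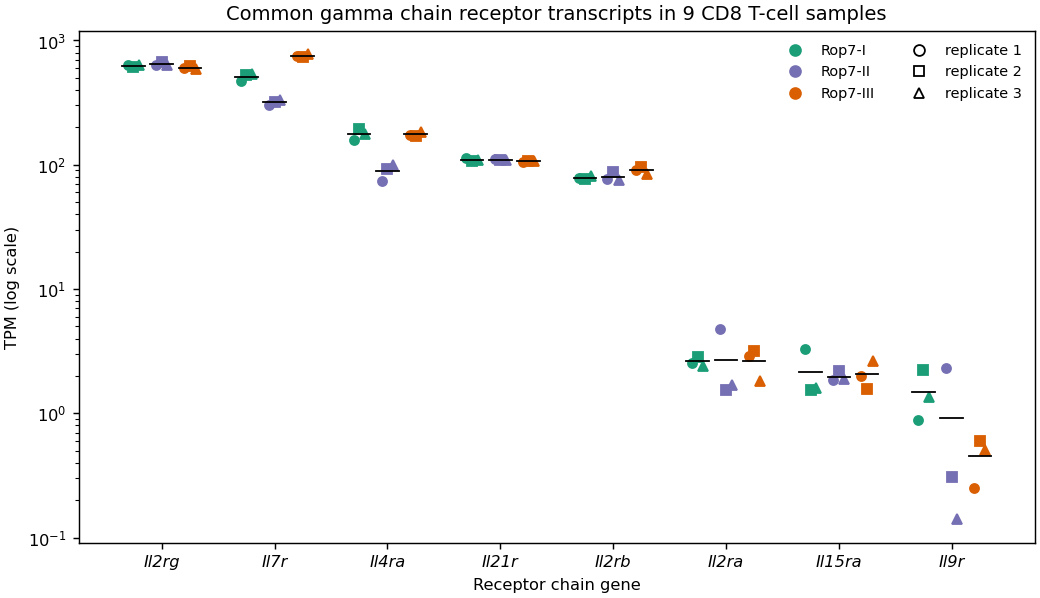
TPM of the 8 receptor chain genes (log scale) in each sample, coloured by clone, with the replicate number as the symbol and the clone mean as a bar. The 3 clones sit apart from each other for Il7r, and Rop7-II cells sit below the other clones for Il4ra.

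Il2rg, the shared signalling subunit, was the most abundant chain in Rop7-I and Rop7-II cells. Il2rg was at 634.70, 610.07 and 634.03 TPM in Rop7-I, at 639.74, 665.28 and 632.01 TPM in Rop7-II and at 602.43, 623.09 and 584.87 TPM in Rop7-III. The means were 626 ± 14.03, 646 ± 17.4 and 603 ± 19.1 TPM (SD, n = 3). The values of Rop7-III were all below those of Rop7-II, but overlapped those of Rop7-I. Rop7-III differed from Rop7-II by a log2 fold change of -0.10 (95% interval -0.17 to -0.02), which did not pass the test (limma adjusted p = 0.0604). An annotated gene, Gm20489, overlaps Il2rg, and the libraries were not strand-specific, so that reads of the pair cannot be told apart where they overlap.

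Il7r encodes the alpha chain of the IL-7 receptor, which also serves the receptor for thymic stromal lymphopoietin together with Crlf2. Il7r was at 473.48, 525.09 and 533.47 TPM in Rop7-I, at 300.25, 317.80 and 333.19 TPM in Rop7-II and at 746.95, 730.03 and 771.16 TPM in Rop7-III. None of the 3 clones overlapped another, and the order was Rop7-II, Rop7-I and Rop7-III from low to high. The clone means were 511 ± 32.5, 317 ± 16.5 and 749 ± 20.7 TPM (SD, n = 3).

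Rop7-III cells held 2.36-fold more Il7r than Rop7-II cells (log2 fold change 1.24, SE 0.05, limma adjusted p = 1.26e-06), with a 95% interval of 2.18 to 2.56-fold. Against Rop7-I cells, Il7r was 1.47-fold higher in Rop7-III (log2 fold change 0.55, SE 0.05, adjusted p = 2.64e-04). Between the remaining clones it was 1.61-fold higher in Rop7-I than Rop7-II cells (log2 fold change 0.69, SE 0.05, adjusted p = 4.85e-05). Across the 3 clones Il7r ranked 26 of the 12115 genes by the F test (adjusted p = 2.23e-06). Without the first replicate of Rop7-II, which stood apart for markers of other cells, Il7r was still higher in Rop7-III than Rop7-II cells by 1.201 on the log2 scale (adjusted p = 4.36e-06).

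Il4ra encodes the chain that binds IL-4. Il4ra was at 158.71, 194.02 and 177.23 TPM in Rop7-I, at 74.49, 92.82 and 99.21 TPM in Rop7-II and at 174.74, 171.83 and 184.68 TPM in Rop7-III. The Rop7-II samples were all below the other 6, which overlapped each other. The means were 177 ± 17.7, 88.8 ± 12.8 and 177 ± 6.74 TPM in Rop7-I, -II and -III cells (SD, n = 3).

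The difference between Rop7-III and Rop7-II was a log2 fold change of 0.997 (SE 0.10, limma adjusted p = 1.91e-04), just under the 2-fold limit that the study set for its own lists. Rop7-I exceeded Rop7-II for Il4ra by a log2 fold change of 0.99 (SE 0.10, adjusted p = 3.26e-04). Rop7-III and Rop7-I did not pass the test for Il4ra (log2 fold change 0.01, 95% interval -0.22 to 0.24, adjusted p = 0.971). Rop7-II replicate 1, which had the highest level of B-cell markers, was the lowest of all samples for Il4ra. Without it Rop7-III exceeded Rop7-II by 0.88 on the log2 scale (adjusted p = 1.56e-04) and Rop7-I exceeded Rop7-II by 0.87 (adjusted p = 2.13e-04). The annotated gene Gm44876 overlaps Il4ra, and without strand its reads cannot be told apart from those of Il4ra where they overlap.

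Il21r, the private chain of the IL-21 receptor, lies 24.0 kb downstream of Il4ra on chromosome 7 and did not pass the test in any pair. Il21r was at 113.01, 107.22 and 108.47 TPM in Rop7-I, at 111.44, 109.64 and 109.60 TPM in Rop7-II and at 105.11, 107.83 and 107.40 TPM in Rop7-III. All 9 values thus lay between 105.11 and 113.01 TPM, the narrowest spread of the abundant chains. Rop7-III and Rop7-II did not overlap, but their log2 fold change was -0.05 (95% interval -0.11 to 0.02, limma adjusted p = 0.308).

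Il2rb, the beta chain that the receptors for IL-2 and IL-15 share, had its highest mean in Rop7-III cells but did not pass the test. Il2rb was at 77.75, 77.12 and 80.95 TPM in Rop7-I, at 77.18, 87.26 and 75.86 TPM in Rop7-II and at 89.97, 95.79 and 84.43 TPM in Rop7-III. Rop7-III lay above all Rop7-I samples and overlapped Rop7-II. The log2 fold change was 0.19 against Rop7-I (95% interval 0.05 to 0.33, limma adjusted p = 0.0692) and 0.17 against Rop7-II (95% interval 0.03 to 0.31, adjusted p = 0.0748).

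Counted over the 8 members, Il7r and Il4ra were past the limit in Rop7-III against Rop7-II, both higher in Rop7-III, where 12.3% of all tested genes passed and 6.39% were higher. In Rop7-III against Rop7-I, 1 member, Il7r, was higher, where 4.85% of all tested genes passed and 2.58% were higher. In Rop7-I against Rop7-II, Il7r and Il4ra were higher in Rop7-I, where 7.53% of all tested genes passed and 3.67% were higher. No member was lower in any of these 3 contrasts, where 5.89%, 2.28% and 3.85% of all tested genes were lower. The pairs share samples, since each clone enters 2 of them. With a 2-fold minimum added, 1 member, Il7r, was left in Rop7-III against Rop7-II (background 1.7%) and 0 members in the other pairs (1.06% in Rop7-III against Rop7-I and 0.949% in Rop7-I against Rop7-II).

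Replicates of 4 members did not overlap between Rop7-III and Rop7-II (background 40.7%), of 3 members between Rop7-III and Rop7-I (38.2%) and of 2 members between Rop7-I and Rop7-II (35%). With F tests across the clones, 2 of the 8 members passed, against 14.1% of all tested genes. The median log2 fold change of the 8 members was 0.05, -0.01 and 0.06 in the 3 pairs, near that of all tested genes (-0.02, -0.00 and -0.01). The plot of differences shows the intervals for all 24 comparisons.

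**Figure D2:**
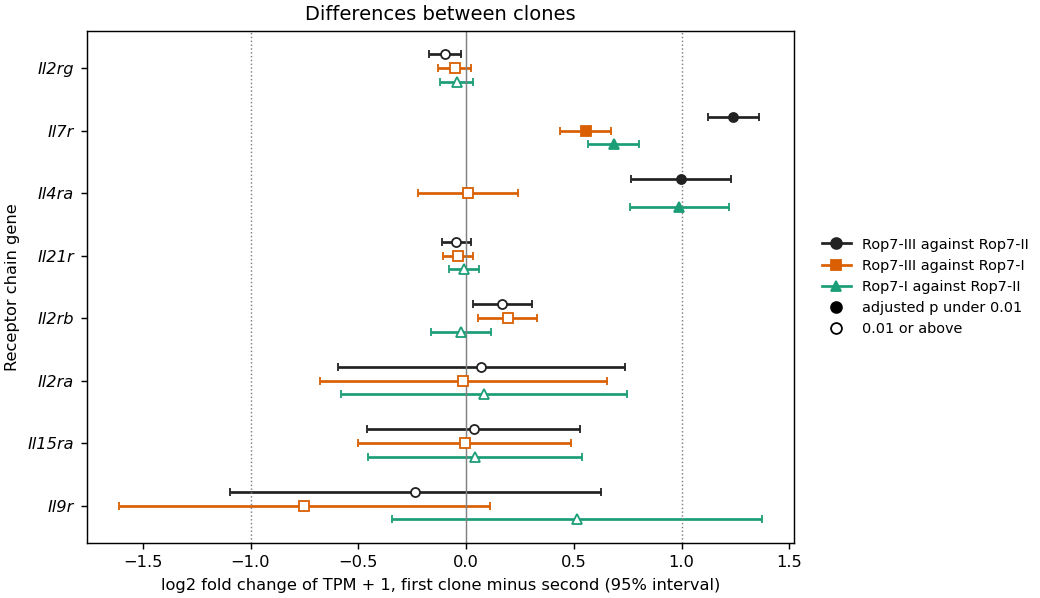
Log2 fold change of TPM + 1 with its 95% interval from limma for each receptor chain in the 3 pairs of clones, first clone minus second. Filled symbols passed an adjusted p under 0.01, dotted lines mark a 2-fold difference, and filled symbols occur for Il7r and Il4ra alone.

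Relative to Il2rg in the same sample, Il7r again set the clones apart (plot of percent of Il2rg). Il7r transcripts amounted to 81.6 ± 6.14% of Il2rg in Rop7-I, 49.1 ± 3.13% in Rop7-II and 124 ± 7.35% in Rop7-III (SD, n = 3). The Il7r transcript exceeded that of the common chain in all 3 samples of Rop7-III, at 117 to 132% of it, and in none of the other 6. Summed over the 7 other chains, transcripts were at 141 ± 9.37% of Il2rg in Rop7-I, 93.2 ± 4.59% in Rop7-II and 187 ± 9.44% in Rop7-III. In each Rop7-II sample the 7 other chains together were thus below Il2rg, and in each sample of the other clones above it.

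Il4ra was at 28.3 ± 3.41%, 13.8 ± 2.03% and 29.4 ± 2.03% of Il2rg in Rop7-I, Rop7-II and Rop7-III. Il21r stayed at 17.5 ± 0.36%, 17.1 ± 0.52% and 17.7 ± 0.57% of Il2rg. Il2rb was at 12.6 ± 0.27% and 12.4 ± 0.63% of Il2rg in Rop7-I and Rop7-II and at 14.9 ± 0.47% in Rop7-III, whose samples were all above the other 6. These ratios are descriptions of transcripts and were not tested, and receptor protein was not measured in these files.

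**Figure D3:**
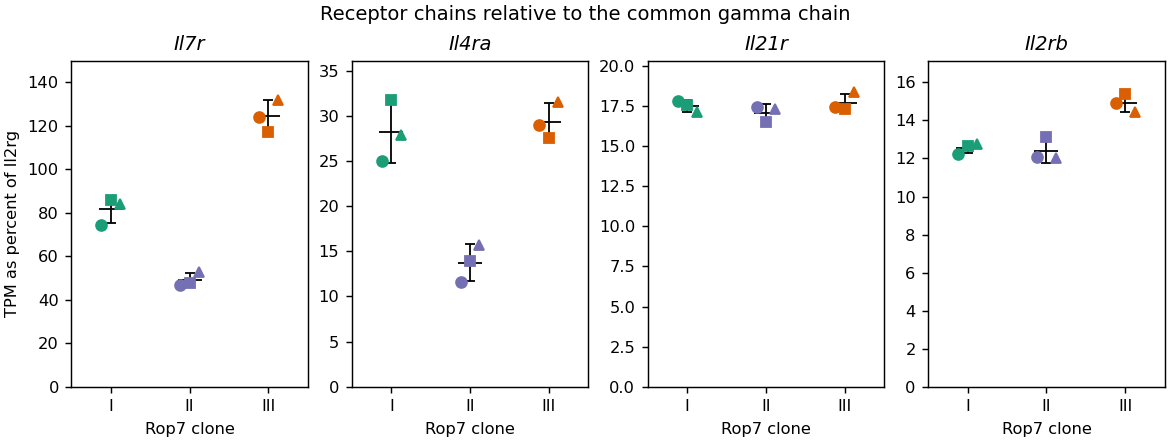
TPM of 4 private chains as a percent of Il2rg TPM in the same sample, by clone, with points for the replicates and the mean with SD as a bar. Il7r exceeds Il2rg in Rop7-III alone, Il4ra is lowest in Rop7-II, and Il21r overlaps between clones.

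The order of levels changed with these differences. In Rop7-I cells every replicate had the order Il2rg, Il7r, Il4ra, Il21r and Il2rb from high to low. In Rop7-III cells Il7r stood above Il2rg in every replicate, and the rest of the order was that of Rop7-I. In Rop7-II cells Il4ra fell below Il21r in every replicate and its range of 74.49 to 99.21 TPM overlapped the range of 75.86 to 87.26 TPM of Il2rb, so that these neighbours did not differ beyond their spread. The ratio of Il4ra to Il21r was 0.67 to 0.91 in Rop7-II and 1.40 to 1.81 in the other 6 samples.

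All 8 transcripts together summed to 1508 ± 39.0, 1247 ± 32.8 and 1732 ± 6.79 TPM in Rop7-I, -II and -III cells. Il7r made up 33.8%, 25.4% and 43.3% of that sum, and Il2rg 41.6%, 51.8% and 34.8%. Although both Il7r and Il4ra were lowest in Rop7-II, their ratio was not fixed. Il7r was at 2.90 ± 0.17 times the level of Il4ra in Rop7-I, 3.60 ± 0.37 times in Rop7-II and 4.23 ± 0.05 times in Rop7-III.

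Il2ra, Il15ra and Il9r were scarce, and no difference between clones could be shown for them. The first, Il2ra, encodes CD25, the alpha chain that raises the affinity of the receptor for IL-2. Il2ra was at 2.56, 2.86 and 2.42 TPM in Rop7-I, at 4.79, 1.55 and 1.68 TPM in Rop7-II and at 2.92, 3.16 and 1.81 TPM in Rop7-III. The highest and the lowest of the 9 values were both Rop7-II samples. All 3 clones overlapped, with log2 fold changes of -0.01 to 0.08 and 95% intervals that reached from -0.68 to 0.75. Il2rb transcripts were 16.1 to 56.3 times as abundant as Il2ra transcripts. Il2ra overlaps the annotated gene Gm37881, so that its low value may hold reads of both where they overlap.

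Il15ra, the alpha chain that presents IL-15, lies 12.1 kb downstream of Il2ra on chromosome 2. Il15ra was at 3.32, 1.54 and 1.59 TPM in Rop7-I, at 1.84, 2.18 and 1.89 TPM in Rop7-II and at 1.99, 1.58 and 2.64 TPM in Rop7-III. The clones overlapped, and the highest and the lowest value both belonged to Rop7-I. The limma 95% interval of the log2 fold change was -0.46 to 0.53 for Rop7-III against Rop7-II.

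Il9r, the private chain of the IL-9 receptor, was the scarcest. Il9r was at 0.88, 2.24 and 1.36 TPM in Rop7-I, at 2.30, 0.31 and 0.14 TPM in Rop7-II and at 0.25, 0.60 and 0.51 TPM in Rop7-III. Rop7-I was above Rop7-III without overlap, but the log2 fold change of -0.75 for Rop7-III against Rop7-I had a 95% interval of -1.61 to 0.11 (limma adjusted p = 0.238). Within Rop7-II the first replicate was far above the other two.

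Of these 3 chains, Il9r was high in the samples with the most B-cell marker transcripts. Of the libraries, Rop7-II replicate 1 had the highest value for 12 of 12 B-cell markers and for 9 of 9 myeloid markers. B-cell markers summed to 1808 TPM in it, and to 289 to 765 TPM in Rop7-I, 144 and 195 TPM in the other Rop7-II samples and 109 to 240 TPM in Rop7-III, and myeloid markers to 741 TPM in it against 134 to 289 TPM elsewhere. None of the defining markers Cd79a, Ms4a1 and Lyz2 was at 0 in any sample, and no marker on either list passed the test between clones. NK-cell markers summed to 0.68 to 6.04 TPM.

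CD8 T-cell markers summed to 6655 to 7028 TPM in Rop7-II, above the 6204 to 6499 TPM of the other 6 samples. Of the 6 markers on that list, Cd8a and Thy1 were lower in Rop7-III than Rop7-II cells (log2 fold change -0.39, limma adjusted p = 2.05e-04, and -0.17, adjusted p = 0.00732). In that pair 5.89% of all tested genes were lower. Cd8a was also lower in Rop7-I than Rop7-II cells (-0.22, adjusted p = 0.00640), where 3.85% were lower. Cd3d went the other way without passing, at 620.15 to 659.21 TPM in Rop7-II, below the 663.86 to 717.14 TPM of the other 6 samples. The sum of the CD8 T-cell markers was thus highest in the clone with the least Il7r and Il4ra, and its part in those differences was not tested. Markers of CD4 and regulatory T cells summed to 85.6 to 102 TPM. Of these 5, 1 marker, Ikzf2, was higher in Rop7-III than Rop7-II cells (0.66, adjusted p = 8.00e-04), where 6.39% of all tested genes were higher. Cd4, Foxp3 and Ctla4 were lower in that pair without overlap (-1.10, -0.79 and -0.53) but did not pass (adjusted p = 0.129, 0.114 and 0.0235), and Tnfrsf18 overlapped.

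The 4 samples with the most Il9r were the 4 with the most B-cell marker transcripts, all 3 of Rop7-I and Rop7-II replicate 1. Il2ra was highest in Rop7-II replicate 1, at 4.79 TPM, and was at 2.92 TPM in Rop7-III replicate 1, where the B-cell sum was lowest. For Rop7-III against Rop7-II its log2 fold change was 0.07 in the main fit. It was 0.37 with the B-cell covariate, 0.65 with the myeloid covariate and 0.45 without Rop7-II replicate 1, and did not pass in any of these fits. Of the 5 markers of CD4 and regulatory T cells, 2 were highest in Rop7-II replicate 1, Cd4 at 6.75 TPM and Foxp3 at 5.00 TPM, and Ikzf2 was lowest in it at 3.92 TPM. With the mean of the B-cell markers as a covariate, the log2 fold change of Il9r for Rop7-III against Rop7-I was -0.12 (limma adjusted p = 0.701). The B-cell sums of these clones did not overlap, at 289 to 765 TPM in Rop7-I and 109 to 240 TPM in Rop7-III. That fit therefore cannot tell a difference between clones apart from a share of B cells. Without Rop7-II replicate 1, Il9r in Rop7-I exceeded Rop7-II by a log2 fold change of 0.99 in place of 0.51, and its adjusted p was 0.0237 in place of 0.397. The part of the other cells in the levels of Il9r and Il2ra was not tested. Il15ra was highest in Rop7-I replicate 1 and Rop7-III replicate 3, neither of which had the highest sum of either list (plot of the scarce chains beside marker sums). With the B-cell covariate, Il7r in Rop7-III exceeded Rop7-II by 1.22 and Il4ra by 0.93 on the log2 scale (adjusted p = 2.83e-06 and 2.11e-04).

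**Figure D4:**
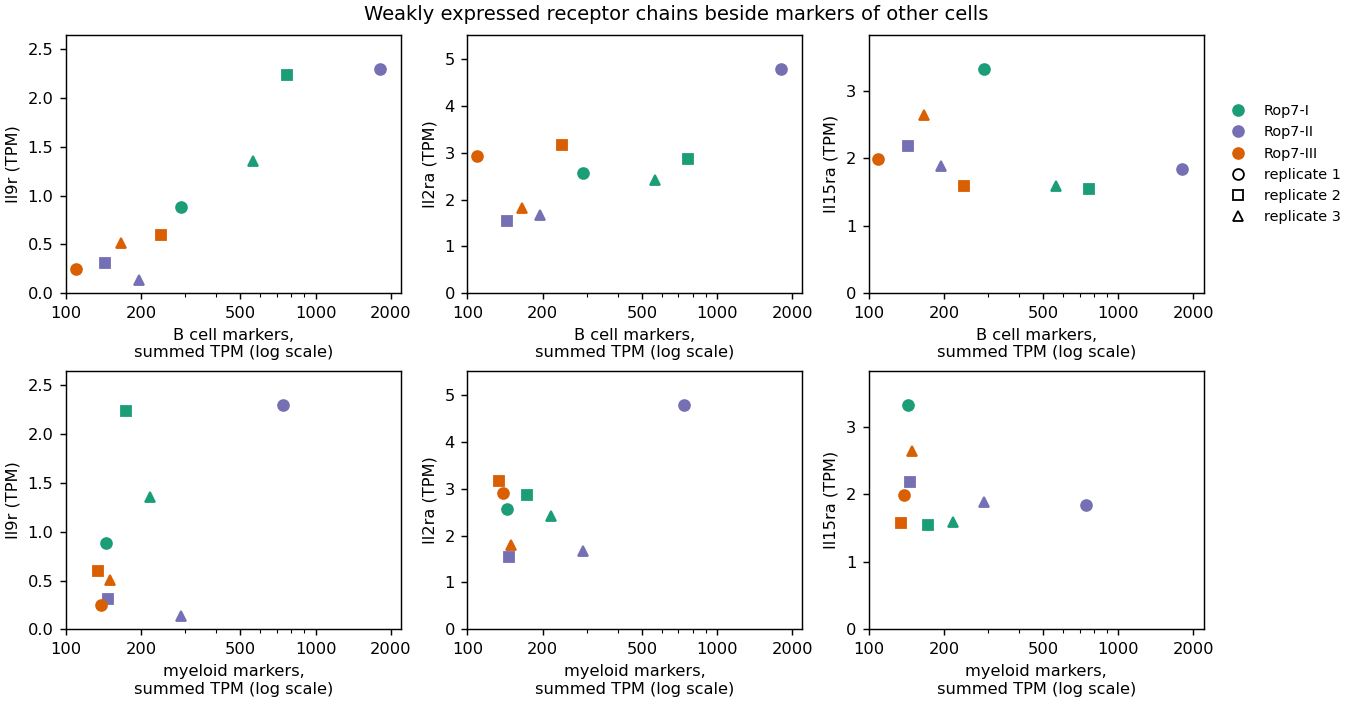
TPM of Il9r, Il2ra and Il15ra in each sample against the summed TPM of 12 B-cell markers (top row) and 9 myeloid markers (bottom row), both on a log scale. The samples with the highest B-cell sums have the highest Il9r, and Rop7-II replicate 1 lies at the far right of every panel.

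The ligands of these receptors were nearly absent from the cells. Il2, Il4, Il7, Il9, Il15, Il21, Il13 and Tslp were at 1.30 TPM or less in every sample, Il9 and Tslp were listed at 0 in every sample, and 1 of the 8, Il13, passed the filter for testing. Among chains that pair with members, Crlf2, the partner of Il7r in the receptor for thymic stromal lymphopoietin, was most abundant in Rop7-III. Crlf2 was at 21.75, 22.81 and 24.11 TPM in Rop7-I, at 28.85, 21.46 and 25.02 TPM in Rop7-II and at 32.52, 37.19 and 32.50 TPM in Rop7-III. Its values in Rop7-III were above all others, but Rop7-I and Rop7-II overlapped. Crlf2 was higher in Rop7-III than Rop7-I cells (log2 fold change 0.55, limma adjusted p = 0.00764), and the difference of 0.43 from Rop7-II missed the limit (adjusted p = 0.0125). Il13ra1, which pairs with Il4ra in the receptor for IL-13, was at 1.12 TPM or less, and Il13ra2, which binds IL-13 alone, was listed at 0 throughout.

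Among the kinases and transcription factors that the receptors use, Stat3, an effector of IL-21, was higher in Rop7-I than Rop7-II cells (log2 fold change 0.40, limma adjusted p = 0.00974). Stat3 was at 129 ± 15.5, 96.8 ± 3.87 and 106 ± 7.87 TPM in Rop7-I, -II and -III cells (SD, n = 3). The kinases Jak1 and Jak3, the IL-7 and IL-2 effectors Stat5a and Stat5b and the IL-4 effector Stat6 did not pass in any pair, and Jak3 ranged from 141.62 to 229.99 TPM in Rop7-I, above the 97.22 to 124.57 TPM of the other 6 samples.

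Of 7 feedback inhibitors of cytokine signalling, 1 was higher and 1 lower in Rop7-III against Rop7-II (6.39% and 5.89% of all tested genes). Socs1, which inhibits JAK kinases, was at 138.22, 145.45 and 147.03 TPM in Rop7-III and at 73.14, 64.36 and 109.49 TPM in Rop7-II, without overlap (log2 fold change 0.83, limma adjusted p = 0.00495). Socs3, which acts on STAT3-activating receptors, was at 73.65, 78.84 and 62.47 TPM in Rop7-III and at 161.71, 146.55 and 167.82 TPM in Rop7-II, and the log2 fold change was -1.14 (adjusted p = 6.39e-04). Socs3 was also lower in Rop7-III than Rop7-I cells (-0.995, adjusted p = 0.00278). Cish, a target of STAT5, was at 4.08 TPM or less in every sample and did not pass.

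Among 12 transcripts that these cytokines are known to raise, Bcl2, a survival factor downstream of IL-7, was lowest in Rop7-II. Bcl2 was at 18.2 ± 2.41, 12.9 ± 0.72 and 18.8 ± 1.01 TPM in Rop7-I, -II and -III cells (SD, n = 3). Against Rop7-II it was higher in both Rop7-III (log2 fold change 0.52, limma adjusted p = 0.00335) and Rop7-I (0.46, adjusted p = 0.00828). Rop7-III and Rop7-I did not pass for Bcl2 (0.05, adjusted p = 0.740). The related survival genes Bcl2l1 and Mcl1 did not pass in any pair. Whether the receptor levels have a part in the level of Bcl2 was not tested. Pim2, a kinase of growth and survival, and Myc were higher in Rop7-I than Rop7-II cells (0.90, adjusted p = 0.00280; 0.48, adjusted p = 0.00465), whereas Lta, encoding lymphotoxin alpha, and Id2 were lower in Rop7-III than Rop7-II cells (-1.27, adjusted p = 0.00272; -0.52, adjusted p = 9.17e-04). In Rop7-III against Rop7-II, 1 of the 12 was higher and 2 lower (6.39% and 5.89% of all tested genes). In Rop7-III against Rop7-I none of the 12 passed, where 4.85% of all tested genes did. In Rop7-I against Rop7-II 3 were higher and 0 lower (3.67% and 3.85% of all tested genes).

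**Figure D5:**
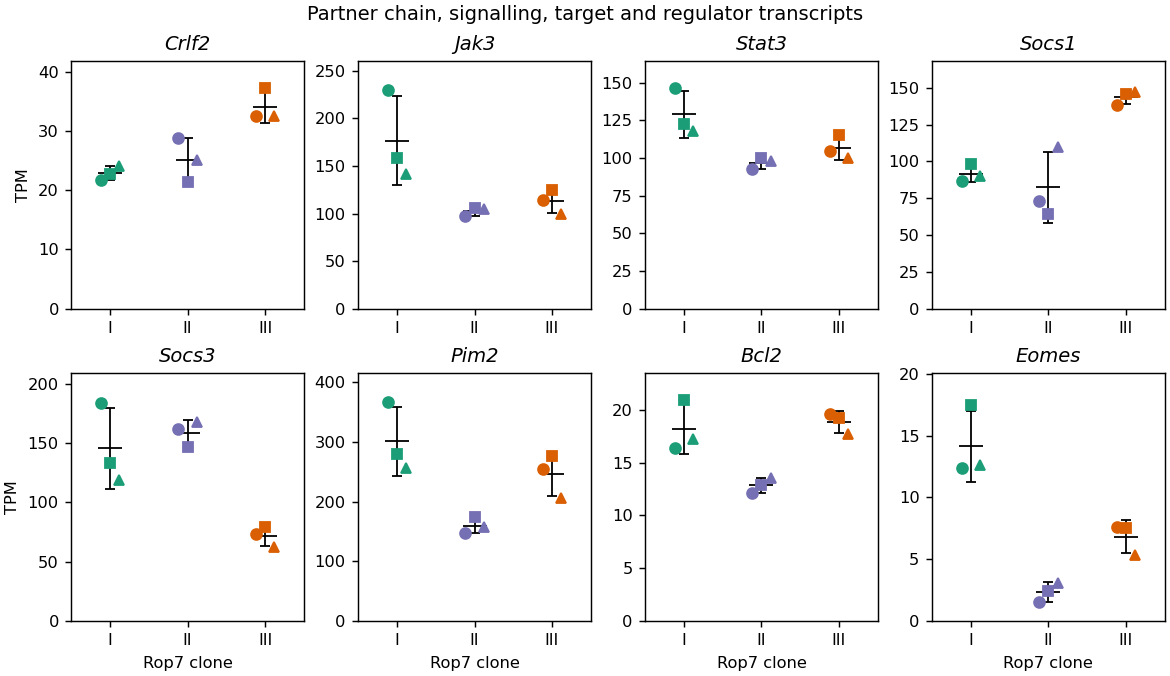
TPM of a partner chain (Crlf2), signalling genes (Jak3, Stat3), feedback inhibitors (Socs1, Socs3), targets (Pim2, Bcl2) and a regulator (Eomes) by clone, with points for the replicates and the mean with SD as a bar. Crlf2 and Socs1 are highest in Rop7-III, Socs3 is lowest there, and Bcl2, Pim2 and Eomes are lowest in Rop7-II.

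Of 7 adaptors downstream of the receptors, 2 were higher and 2 lower in Rop7-III against Rop7-II (6.39% and 5.89% of all tested genes). In Rop7-III against Rop7-I 1 passed (4.85% of all tested genes), and in Rop7-I against Rop7-II 1 passed (7.53%). Gab3 and Pik3r1, a scaffold and the regulatory subunit of PI3-kinase, were higher in Rop7-III than Rop7-II cells (log2 fold change 0.50, limma adjusted p = 7.14e-04; 0.39, adjusted p = 3.67e-04). Pik3cd, the catalytic subunit, and Shc1 were lower (-0.30, adjusted p = 8.07e-04; -0.14, adjusted p = 0.00748). Against Rop7-I, Pik3cd was lower in Rop7-III as well (-0.22, adjusted p = 0.00793), and Pik3r1 was higher in Rop7-I than Rop7-II cells (0.34, adjusted p = 0.00119).

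Transcription factors known to act on the receptor genes included Foxo1, which maintains Il7r, Eomes, which raises Il2rb, and Gabpa and Gfi1, an activator and a repressor of Il7r. Eomes was at 12.35, 17.46 and 12.59 TPM in Rop7-I, at 1.49, 2.45 and 3.07 TPM in Rop7-II and at 7.62, 7.55 and 5.30 TPM in Rop7-III, with no overlap between clones. It was higher than Rop7-II cells in both Rop7-I (log2 fold change 2.19, limma adjusted p = 1.88e-04) and Rop7-III (1.24, adjusted p = 0.00262). Il2rb did not share that order, being at 78.6 ± 2.05, 80.1 ± 6.24 and 90.1 ± 5.68 TPM in Rop7-I, Rop7-II and Rop7-III. The part of Eomes in the levels of Il2rb was not tested.

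Foxo1 was at 117 ± 3.25, 138 ± 9.04 and 141 ± 3.61 TPM in Rop7-I, -II and -III cells, and was higher in Rop7-III than Rop7-I cells (log2 fold change 0.27, limma adjusted p = 0.00777). Rop7-III and Rop7-II did not pass for Foxo1 (0.03, adjusted p = 0.641). Foxo1 was below Rop7-II in Rop7-I without overlap, opposite to Il7r, but did not pass (-0.23, adjusted p = 0.0107). Gabpa (adjusted p = 0.428) and Gfi1 (adjusted p = 0.596) did not pass in Rop7-III against Rop7-II. These are transcript levels, and the part of these factors in the levels of Il7r was not tested. Ets1 was higher in Rop7-III than Rop7-I cells (0.20, adjusted p = 0.00964) and Ikzf1 was higher than Rop7-II cells in both Rop7-III (0.21, adjusted p = 0.00705) and Rop7-I (0.30, adjusted p = 0.00174). Of 12 such factors, of which 11 were tested, 2 were higher and 0 lower in each of the 3 pairs. Over all tested genes the shares higher were 6.39%, 2.58% and 3.67% in Rop7-III against Rop7-II, Rop7-III against Rop7-I and Rop7-I against Rop7-II. The shares lower were 5.89%, 2.28% and 3.85%.

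Of 5 other targets of Foxo1, 2 were higher and 1 lower in Rop7-III against Rop7-II (6.39% and 5.89% of all tested genes). Bcl2l11, encoding the death factor BIM, was higher than in Rop7-II in both Rop7-III (log2 fold change 0.41, limma adjusted p = 8.00e-04) and Rop7-I (0.28, adjusted p = 0.00836). Ccr7, a homing receptor of naive cells, was lower in both Rop7-III (-0.14, adjusted p = 0.00655) and Rop7-I (-0.24, adjusted p = 5.22e-04) than Rop7-II cells. Klf2, a factor of quiescence, was higher in Rop7-III than Rop7-I cells (0.51, adjusted p = 0.00162) and lower in Rop7-I than Rop7-II cells (-0.68, adjusted p = 2.62e-04). Over all 61 genes of these lists, of which 52 were tested, 8 were higher and 7 lower in Rop7-III against Rop7-II, 4 and 3 in Rop7-III against Rop7-I, and 10 and 2 in Rop7-I against Rop7-II. Over all tested genes the shares higher and lower were 6.39% and 5.89%, 2.58% and 2.28%, and 3.67% and 3.85% in the same order. The median log2 fold changes of the 52 were -0.06, -0.00 and -0.04, beside -0.02, -0.00 and -0.01 over all tested genes.

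The genes whose levels were most like those of Il7r over the 9 samples, by Pearson's r of log2(TPM + 1) among 9738 genes and with no test, were Dap (0.995), Prkd3 (0.993), Klhl6 (0.992), Cd101 (0.990) and Rras2 (0.990). Dap was at 78.1 ± 5.07, 124 ± 1.98 and 187 ± 1.81 TPM in Rop7-II, Rop7-I and Rop7-III, and Cd101, a surface protein of T cells and myeloid cells, was at 2.71 ± 0.44, 6.37 ± 0.60 and 11.2 ± 0.85 TPM in the same order. The genes most like Il4ra were Heatr5a (0.996), Slfn5 (0.989), Cblb (0.985), Pde2a (0.980) and Agps (0.979). Cblb, which encodes a ubiquitin ligase that restrains T-cell activation, was at 58.7 ± 4.88, 78.7 ± 3.02 and 81.4 ± 2.70 TPM in that order. The points of such a correlation share the 9 libraries and the 3 clones, and any gene with the same order of clones scores highly.

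The 8 genes lie at 6 places of the genome, since Il2ra and Il15ra are neighbours on chromosome 2 and Il4ra and Il21r on chromosome 7. Il7r occupies chr15:9505788-9530176 on the minus strand and Il4ra chr7:125552120-125579474 on the plus strand (GRCm38). Within 1 Mb of Il7r, 0 of 8 tested genes passed an adjusted p under 0.01 with a 2-fold difference in any pair, against 300 of all 12115 tested genes (2.48%). Near Il4ra 1 of 19 did, 4933440M02Rik, at 202.3 kb, which was higher in Rop7-III than Rop7-II cells by 1.18 on the log2 scale (limma adjusted p = 0.00990). Near Il2rg it was 1 of 21, Cxcr3, a chemokine receptor, higher in Rop7-III than Rop7-II cells by 2.07 (adjusted p = 0.00151), and near Il9r 2 of 15, Nsg2 and Stc2 (-1.64 and 1.24 in Rop7-I against Rop7-II, adjusted p = 7.06e-04 and 0.00712). For Il21r it was 1 of 20, again 4933440M02Rik. None of the tested genes within 1 Mb of Il2ra, Il15ra or Il2rb passed this rule.

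Promoter windows of 250 bases before to 50 after a start site were taken from RefSeq for 7 of the members and searched on both strands for TTCNNNGAA, a STAT site, TGTTTAC, a forkhead site, and CCGGAAG, an ETS site. Of all 32851 windows, 8.3% held the STAT letters, 3.65% the forkhead letters and 8.86% the ETS letters. TTCNNNGAA was found in the window of Il7r at -142, TGTTTAC in that of Il21r at -38, and CCGGAAG in those of Il15ra at -104 and Il2rg at -17. The parts of the windows outside annotated exons are shown for Il7r and Il4ra, the chains that differed, and for Il21r, the neighbour of Il4ra that did not pass the test, with any match in capitals, 5' to 3' along the gene.

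Il7r, chr15:9529836-9530040, minus strand: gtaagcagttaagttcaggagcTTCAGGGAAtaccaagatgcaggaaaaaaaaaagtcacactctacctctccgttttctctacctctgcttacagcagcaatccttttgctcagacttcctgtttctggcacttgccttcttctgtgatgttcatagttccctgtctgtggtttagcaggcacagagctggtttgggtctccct
Il4ra, chr7:125552021-125552119, plus strand: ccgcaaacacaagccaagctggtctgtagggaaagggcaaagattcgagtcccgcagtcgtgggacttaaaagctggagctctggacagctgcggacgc
Il21r, chr7:125603179-125603428, plus strand: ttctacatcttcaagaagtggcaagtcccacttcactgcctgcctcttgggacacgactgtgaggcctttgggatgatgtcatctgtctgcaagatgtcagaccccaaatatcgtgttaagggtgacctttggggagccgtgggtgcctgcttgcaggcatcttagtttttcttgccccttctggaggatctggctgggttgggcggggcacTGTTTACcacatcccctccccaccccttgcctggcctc

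The Il7r window lies within the annotated span of the gene, whose most upstream start is further out. The window of Il4ra held none of the 3 motifs. These matches are descriptions of letters in a window, and binding was not measured.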

How the data were processed

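Polyadenylated RNA of 9 samples, 3 each of Rop7-I, Rop7-II and Rop7-III CD8 T cells, was sequenced from 200 ng of RNA in libraries that were not strand-specific. Against RefSeq genes (mm10), the authors quantified reads of 100 bp with RSEM 1.2.11, per the submitters' processing notes, and deposited TPM with 2 decimals, which are divided by length and scaled to a common total (999999 to 1000001 per sample). The deposited TPM hold no counts, so the depth is unknown and no counting interval is given. The submitters' notes also name DESeq2 1.8.1, a test of counts that was not used here.

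The TPM were transformed to log2(TPM + 1), which understates changes of low genes, and genes with a highest TPM of 1 or less were left out. Clones, taken from the labels, were compared in R 4.3.3 with limma 3.58.1 on the 9 samples together, the spread being allowed to depend on expression. P values were two-sided and adjusted by Benjamini-Hochberg over all 12115 tested genes of a pair, with a limit of 0.01. The script was tested on simulated data. The labels call the replicates biological without tying each to a mouse of its own, so p values measure the spread between these samples.

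The members, the gene lists and the marker lists were chosen with earlier results of these data known. Named were all members, up to 4 genes per list and pair with the smallest adjusted p, the 5 genes most like the 2 members with the smallest F test p, and called neighbours within 1 Mb. Some genes that this rule names are not reported here. Other listed genes named without passing were chosen after their values were seen. Positions and coding sequences are from GRCm38, and promoter windows from RefSeq on GRCm38.p6. No protein sequences were used.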

Additional observations from a re-analysis of the deposited data

How the results depend on the processing

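The calls of Il7r in all 3 pairs and of Il4ra against Rop7-II kept their direction and their side of the limit under all 21 alternatives run for each, which were pseudocounts of 0.1 and 0.5, no filter or a stricter filter, a common median, quantile normalization, no trend, sample weights, the replicate block, B-cell or myeloid markers as a covariate, only the clones compared, and each sample left out. Il7r ranged from 1.201 to 1.28 in Rop7-III against Rop7-II (highest adjusted p 5.88e-05), from 0.50 to 0.59 against Rop7-I (0.00242) and from 0.65 to 0.74 in Rop7-I against Rop7-II (0.00161), and Il4ra from 0.85 to 1.08 (0.00280) and from 0.87 to 1.07 (0.00531). No other member passed the limit under any of them. With a 2-fold minimum the member counts were 1, 0 and 0 in place of 2, 1 and 2. Replicate numbers were shared across clones. The correlation of same-numbered deviations was -0.39 to 0.11, over 0.1 in 1 of 9 cases, and 1 sample correlated best with its own number. No pairing was seen by this measure, which with 3 replicates per clone cannot show whether same-numbered samples were prepared together. With the replicate block the member counts were 2, 1 and 2, and the genes called were 1105, 373 and 613 in place of 1488, 588 and 912. Signs of members that did not pass turned in some fits, and the cause was not tested. For Il2ra in Rop7-III against Rop7-I they were 0.0033 with a common median, 0.046 with quantile normalization, 0.044 with sample weights, 0.43 with the B-cell and 0.28 with the myeloid covariate, and for Il2ra in Rop7-I against Rop7-II -0.064 with the B-cell covariate. Il4ra in Rop7-III against Rop7-I was -0.00083 with quantile normalization, -0.0041 with sample weights and -0.095 and -0.067 with the covariates. Il15ra in Rop7-III against Rop7-II was -0.025 with sample weights and -0.060 and -0.11 with the covariates, in Rop7-III against Rop7-I 0.0071 with a pseudocount of 0.1, 0.0097 with a common median and 0.060 with quantile normalization, and in Rop7-I against Rop7-II -0.034 with the myeloid covariate. Il21r in Rop7-I against Rop7-II was 0.0097 with quantile normalization, and Il9r in Rop7-III against Rop7-II 0.19 and 0.53 with the covariates. Leaving out each sample in turn gave ranges of -0.14 to 0.45, -0.12 to 0.16 and -0.13 to 0.47 for Il2ra in Rop7-III against Rop7-II, Rop7-III against Rop7-I and Rop7-I against Rop7-II, and of -0.095 to 0.15, -0.14 to 0.24 and -0.21 to 0.17 for Il15ra in the same order. The ranges were -0.062 to 0.038 for Il2rb and -0.031 to 0.0064 for Il21r in Rop7-I against Rop7-II, -0.067 to 0.077 for Il4ra in Rop7-III against Rop7-I and -0.52 to 0.24 for Il9r in Rop7-III against Rop7-II. The files used hold no read counts, so that the precision of Il2ra, Il15ra and Il9r, all under 5 TPM, is given by their replicates alone.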
